A study of Mus musculus with 31 samples.

Results

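A set of 9 genes used to recognize T, B and natural killer (NK) cells, *Cd3d*, *Cd3e*, *Cd3g*, *Cd4*, *Cd8a*, *Trbc2*, *Nkg7*, *Cd79a* and *Ms4a1*, was followed through the mouse brain libraries of the study. The members were picked by gene name, 9 of the 55401 genes in the count tables, and all 9 were found under 1 identifier each. The question was whether lymphocyte transcripts are present in APP/PS1 brain tissue and in CD11b+ microglia, and whether they differ with the PLCγ2-P522R variant. Most values of the *Cd3* genes lay at or under 3 counts, and all were at or under 1.1 CPM. *Cd4* and *Trbc2* were far above them in cortex, and the level of *Cd4* there ran parallel to genes of striatal neurons. Each comparison of the Plcg2 genotypes, or of mice with and without the APP/PS1 transgene, had 2 to 5 members with enough counts to be tested. None of these was called. The T cell genes *Pdcd1*, *Cd5* and *Cd28* were higher in microglia of APP/PS1 females than of females without the transgene, whose libraries carry another batch tag.

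T cells carry a receptor whose alpha and beta chains, the latter with a constant part encoded by *Trbc1* or *Trbc2*, signal through the CD3 proteins encoded by *Cd3d*, *Cd3e* and *Cd3g*. The coreceptors CD4 and CD8 mark helper and cytotoxic T cells, NKG7 is a granule protein of cytotoxic T and NK cells, CD79A is a signaling chain of the B cell receptor, and *Ms4a1* encodes CD20 on B cells. Few lymphocytes are found in the parenchyma of the healthy brain, and most of them lie in the meninges, the choroid plexus and the vessels. Outside lymphocytes, CD4 is also found on some mouse macrophages and dendritic cells.

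The libraries came from mice 13 months of age on a C57BL/6J background. Those labelled A+ carried the APPswe/PS1dE9 transgene, driven by the mouse prion protein promoter, and those labelled A- did not. Pki/ki mice were homozygous for the P522R knock-in made by CRISPR/Cas9 and Pwt/wt mice had wild-type Plcg2. Homogenates of temporo-occipital cortex were from females, with 4 A+/Pki/ki, 4 A+/Pwt/wt and 1 A-/Pwt/wt library. Microglia were isolated with CD11b beads from whole brains of perfused mice, with 4 A+/Pki/ki, 4 A+/Pwt/wt and 7 A-/Pwt/wt female libraries and 4 A-/Pki/ki and 3 A-/Pwt/wt male libraries. The column names carry a batch tag that is the same for all 8 A+ females and another for all 7 A- females, so the transgene and that tag cannot be told apart. Mouse number 236 is given to both a microglia A-/Pwt/wt and a cortex A+/Pwt/wt library, and each was used as labelled. Total counts were 16.2 M to 25.1 M in the 22 microglia libraries and 25.2 M to 43.1 M in the 9 cortex libraries, and levels are given as CPM, the counts per M of the library total. A gene without a read could still be present at up to 3 counts, which is 0.119 to 0.185 CPM in microglia and 0.07 to 0.119 CPM in cortex. These limits cover counting error only. The microglia gene *Csf1r* was at 2743 to 8421 CPM in the CD11b+ libraries and at 97.9 to 198 CPM in cortex, as their labels say. The oligodendrocyte gene *Mbp* was also higher in the CD11b+ libraries, at 4985 to 41289 against 1541 to 2882 CPM. The neuron gene *Camk2a* was at 104 to 2175 against 2659 to 3696 CPM. The libraries called microglia here thus also hold transcripts known from other cells. In such bulk samples, fewer cells of a type and less RNA per cell cannot be told apart.

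The members lie on 4 chromosomes of the mouse genome build GRCm38. *Cd3g* (chr9:44969572-44980431, minus strand), *Cd3d* (chr9:44981786-44987339, plus) and *Cd3e* (chr9:44998740-45009627, minus) are neighbors, and the exons of *Cd3e* overlap *Gm48719* on the other strand. *Cd8a* (chr6:71373427-71379173, plus), *Trbc2* (chr6:41546730-41548352, plus) and *Cd4* (chr6:124864692-124888221, minus) lie on chromosome 6, and *Trbc1* (chr6:41538218-41539881) lies just before its near-identical copy *Trbc2*. *Cd79a* (chr7:24897381-24902197, plus) and *Nkg7* (chr7:43437073-43438249, plus) lie on chromosome 7 and *Ms4a1* (chr19:11249675-11266241, minus) on chromosome 19. Reads were counted irrespective of strand and only where they mapped to 1 place, so values of *Cd3e* can hold reads of *Gm48719*, and those of *Trbc1* and *Trbc2* lack the reads that map to both.

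The members were also ordered by their level per kilobase of exon. In the microglia libraries (n = 22), *Cd4* was at 0.848 ± 0.309 (SD) CPM per kb, *Nkg7* at 0.736 ± 0.518, *Trbc2* at 0.63 ± 0.483 and *Cd79a* at 0.582 ± 0.514, and these 4 neighbors did not differ beyond their spread. *Cd3d* (0.0895 ± 0.135), *Cd8a* (0.0778 ± 0.0488), *Cd3g* (0.0516 ± 0.0417), *Ms4a1* (0.048 ± 0.0545) and *Cd3e* (0.0329 ± 0.0235) followed with lower means, again within their spread of each other. The spread of *Cd79a*, of *Trbc2* and of *Nkg7* reached into that of *Cd3d*. In the 9 cortex libraries, *Trbc2* came first with 7.47 ± 1.84 CPM per kb and *Cd4* second with 4.17 ± 1.73, and the ranges within 1 SD of these means overlapped. *Cd79a* (0.242 ± 0.125) and *Nkg7* (0.151 ± 0.134) followed, and the other members were between 0.00442 (*Ms4a1*) and 0.0717 (*Cd8a*).

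**Figure D1:**
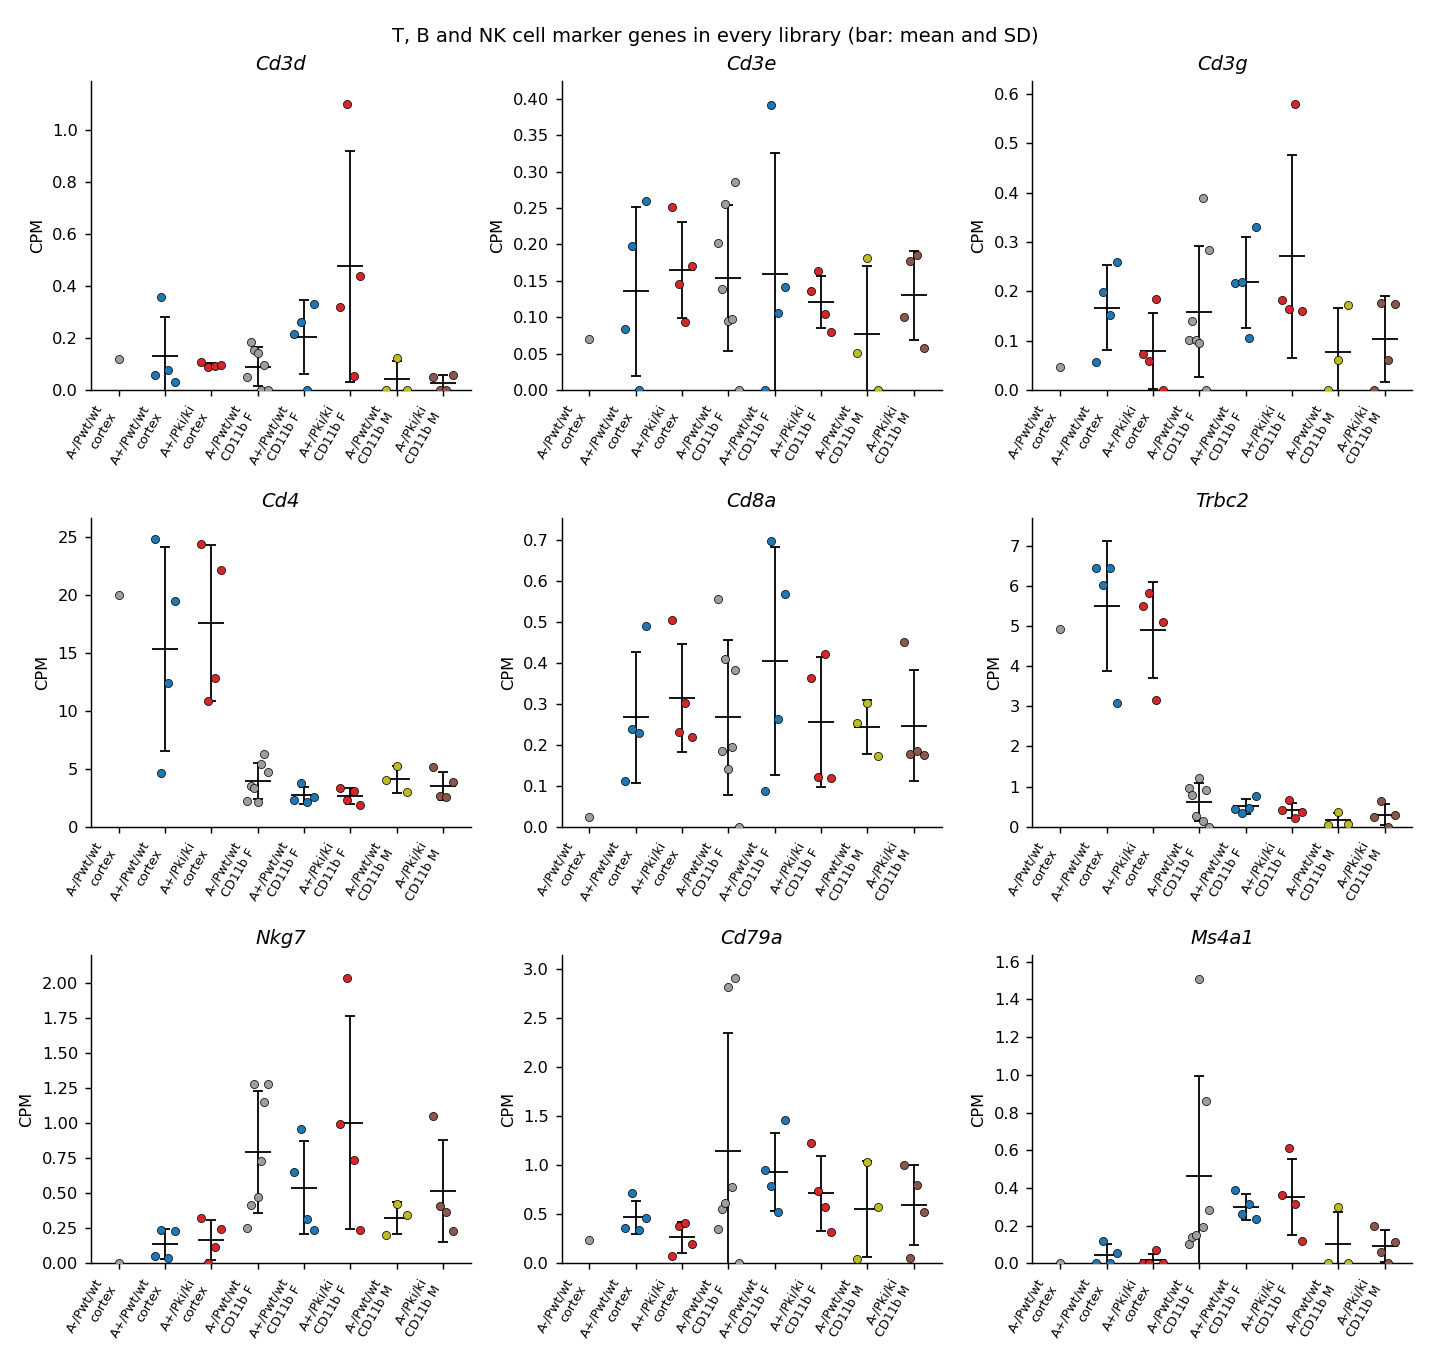
CPM (y axis, linear) of each of the 9 members in every library, by tissue, sex (F, M) and genotype (x axis); 1 point is 1 library, and the bar gives the mean and SD of the group. Cd4 and Trbc2 are high in the cortex libraries (4.6 to 24.8 and 3.09 to 6.45 CPM), while the 3 Cd3 genes stay at or under 1.1 CPM in all libraries.

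The CD3 genes, which every T cell with a receptor needs at its surface, had few counts. Of the 93 values of *Cd3d*, *Cd3e* and *Cd3g* in 31 libraries, 58 were of 3 counts or fewer, 15 were 0, and only 3 were over 10 counts. In cortex, the summed level of the 3 genes was 0.432, 0.29, 0.371 and 0.268 CPM in the A+/Pki/ki libraries and 0.195, 0.753, 0.228 and 0.548 CPM in the A+/Pwt/wt libraries. The A-/Pwt/wt cortex library had 10 counts, 0.235 CPM (95% exact Poisson interval 0.113 to 0.433, counting error only), inside the range of the A+ libraries. The genotype groups thus overlapped in cortex.

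In female microglia, *Cd3d* was at 0.318, 1.1, 0.0526 and 0.438 CPM in the A+/Pki/ki libraries, at 0.217, 0.262, 0 and 0.331 CPM in the A+/Pwt/wt libraries, and between 0 and 0.185 CPM (median 0.0954) in the 7 A-/Pwt/wt libraries. The highest value, 27 counts, was in the A+/Pki/ki library of mouse 335, and the groups overlapped. *Cd3g* was at 0.182, 0.163, 0.579 and 0.159 CPM in A+/Pki/ki, at 0.217, 0.218, 0.106 and 0.331 CPM in A+/Pwt/wt, and between 0 and 0.39 CPM in A-/Pwt/wt libraries. *Cd3e* reached at most 0.163, 0.392 and 0.286 CPM in these groups. Summed over the 3 genes, the A+/Pki/ki libraries had 0.635, 1.43, 0.736 and 0.677 CPM and the A-/Pwt/wt libraries 0.284 to 0.512 CPM, which do not overlap, as was the case for 2.89% of the genes tested in this comparison. The A+/Pwt/wt libraries, at 0.434, 0.872, 0.211 and 0.803 CPM, overlapped both. This sum is a description with no test, and the batch tag differs between A+ and A- libraries. In male microglia, the sum was 0.15 to 0.354 CPM in A-/Pki/ki and 0.0508 to 0.362 CPM in A-/Pwt/wt libraries.

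The values of *Cd4*, the coreceptor of helper T cells, were above the summed CD3 genes in all 31 libraries. In cortex, *Cd4* was at 24.4, 10.8, 12.8 and 22.1 CPM in the A+/Pki/ki libraries (mean 17.5 ± 6.73, SD, n = 4) and at 24.8, 4.6, 12.4 and 19.5 CPM in the A+/Pwt/wt libraries (15.3 ± 8.77, n = 4). The A-/Pwt/wt library had 851 counts, 20.0 CPM (95% exact Poisson interval 18.7 to 21.4), inside the range of the A+ libraries. High and low libraries were thus found in both A+ genotypes, and the lowest was that of A+/Pwt/wt mouse 257.

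The cortex libraries high in *Cd4* were those high in genes of striatal projection neurons. *Drd2*, the dopamine D2 receptor, was at 83.4, 41.6, 55.0 and 79.4 CPM in the same order of A+/Pki/ki libraries, at 86.6, 22.3, 58.3 and 75.6 CPM in the A+/Pwt/wt libraries and at 67.3 CPM in the A-/Pwt/wt library. After centering log2(CPM + 0.1) within each genotype, the genes most like *Cd4* over the 8 A+ cortex libraries were *Rarb* (Pearson r = 1.00), *Tgfa*, *Rasgrp2*, *Pde1b* and *A330094K24Rik* (0.99 each), and without the 2 libraries farthest from the median r was 0.98 to 1.00. A list of 8 striatal genes was then drawn up, chosen after these values were seen: *Drd1*, *Drd2*, *Adora2a*, *Ppp1r1b*, *Rgs9*, *Pde10a*, *Penk* and *Tac1*. Their correlations with *Cd4* were 0.98 to 0.99, and they ranked 6th (*Rgs9*) to 39th (*Pde10a*) of 18639 genes. Their summed level ranged from 606 CPM in the library of mouse 257 to 2053 CPM in that of mouse 236, which were also the lowest and the highest in *Cd4*. In contrast, r was -0.94 for *Slc17a7*, the vesicular glutamate transporter of cortical excitatory neurons, -0.83 for the microglia gene *Csf1r* and 0.40 for the T cell receptor gene *Trac*. These correlations are descriptions over 8 libraries with no p, and the part of striatal tissue in the *Cd4* level was not tested.

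**Figure D2:**
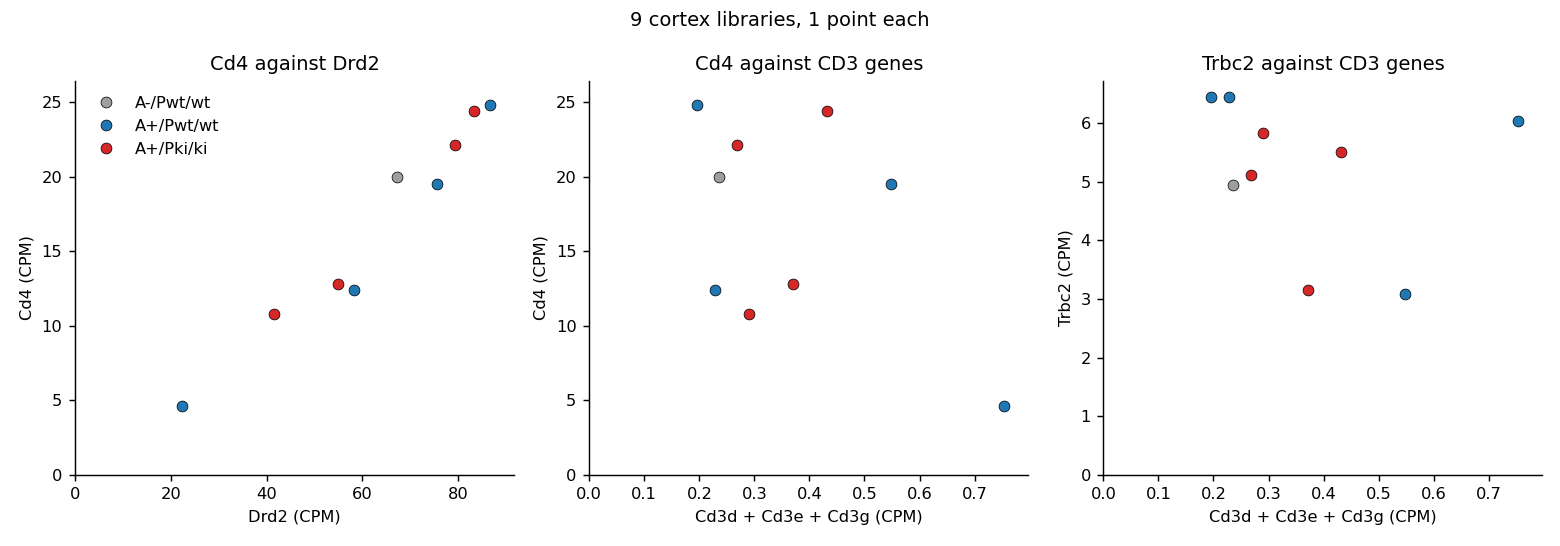
Levels in the 9 cortex libraries (CPM, linear axes, 1 point per library, color by genotype): Cd4 against the striatal gene Drd2, Cd4 against the summed CD3 genes, and Trbc2 against the summed CD3 genes. Cd4 runs from 4.6 to 24.8 CPM as Drd2 runs from 22.3 to 86.6 CPM, while the library with the highest CD3 sum, 0.753 CPM, has the lowest Cd4.

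In microglia, *Cd4* was lower and more even. The A+/Pki/ki libraries had 3.31, 2.33, 3.05 and 1.87 CPM, the A+/Pwt/wt libraries 2.26, 3.79, 2.17 and 2.6 CPM, and the A-/Pwt/wt libraries 2.12 to 6.25 CPM (median 3.47). Male A-/Pki/ki libraries had 5.11, 2.66, 2.53 and 3.84 CPM and male A-/Pwt/wt libraries 4.01, 5.26 and 2.95 CPM. All groups of microglia overlapped. Over the 15 female microglia libraries, the genes most like *Cd4* were *Pip4k2a* (r = 0.90), *Ehhadh* (0.89), *Gm10451*, *Slamf7* and *Rai14* (0.88 each), and r was 0.80 to 0.89 without the 2 libraries farthest from the median. None of these 5 is on the lists of lymphocyte genes. The summed CD3 genes were most like *Epm2a* (0.75), *Hmgn2-ps1* (0.72), *Gm13012*, *Etnk2* (0.71 each) and *Gm37490* (0.70), none of which is on these lists.

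*Cd8a*, the coreceptor of cytotoxic T cells, was low in both tissues. It was at 0.504, 0.232, 0.301 and 0.219 CPM in A+/Pki/ki and at 0.112, 0.238, 0.228 and 0.491 CPM in A+/Pwt/wt cortex. In microglia, it ranged from 0.119 to 0.421 CPM in A+/Pki/ki, from 0.0869 to 0.698 CPM in A+/Pwt/wt and from 0 to 0.556 CPM in A-/Pwt/wt females, and from 0.173 to 0.451 CPM in males. The A-/Pwt/wt cortex library had 1 count, 0.0235 CPM, and its exact Poisson interval reached 0.131 CPM, so it overlapped the lowest A+ value.

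*Trbc2*, the constant part of the T cell receptor beta chain, was at 5.51, 5.83, 3.15 and 5.11 CPM in A+/Pki/ki cortex (4.9 ± 1.2) and at 6.45, 6.03, 6.45 and 3.09 CPM in A+/Pwt/wt cortex (5.5 ± 1.62). The A-/Pwt/wt library had 210 counts, 4.94 CPM (4.3 to 5.66). No cortex group stood apart. Its partners in the receptor were much lower in these libraries. *Trbc1* was between 0 and 0.36 CPM, *Trac*, the alpha chain constant part, between 0.417 and 1.17 CPM, and *Cd247*, the CD3 zeta chain, between 0 and 0.341 CPM. These 3 genes belong to the T cell list and were named after their values were seen. The genes most like *Trbc2* over the 8 A+ cortex libraries were *Mad2l2*, *Tmem42* (r = 0.99 each), *Taf7*, *Dbi* and *Rsph3b* (0.98 each), but without the 2 libraries farthest from the median r was between -0.47 (*Dbi*) and 0.96 (*Tmem42*). The correlation of *Trbc2* with *Cd4* was -0.12. In microglia, *Trbc2* was at 0.21 to 0.653 CPM in A+/Pki/ki, at 0.349 to 0.756 CPM in A+/Pwt/wt and at 0 to 1.22 CPM in A-/Pwt/wt females, and at 0 to 0.649 CPM in males.

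*Nkg7*, the granule protein gene of cytotoxic cells, was found mainly in microglia libraries. It was at 0.998, 2.04, 0.736 and 0.239 CPM in A+/Pki/ki (1.0 ± 0.76), at 0.652, 0.959, 0.317 and 0.236 CPM in A+/Pwt/wt (0.541 ± 0.332) and between 0.253 and 1.28 CPM (median 0.732) in A-/Pwt/wt females. Male libraries had 0.203 to 1.05 CPM and cortex libraries 0 to 0.324 CPM. The highest value was again in the library of mouse 335, which also had the highest *Cd3d* and the highest summed neutrophil genes, 1548 CPM over 7 genes. The highest neutrophil genes were *S100a9* and *Ngp*, at up to 425 and 380.2 CPM in A+/Pki/ki females. They reached 40.2 and 29.4 CPM in A+/Pwt/wt and 151 and 132 CPM in A-/Pwt/wt females. The part of the neutrophils in these values was not tested. The genes most like *Nkg7* were *Fam217a* (r = 0.85), *Tbx1* (0.84), *Chac2* (0.83), *Adgre5* (0.80) and *Foxd1* (0.79). Among the other cytotoxic and NK genes, the chemokine gene *Ccl5* was highest (1.28 to 12.8 CPM in microglia, 0.116 to 0.866 CPM in cortex), followed by the NK receptor gene *Klrd1* (0.408 to 3.5 and 0 to 0.116 CPM) and the protease gene *Ctsw* (0 to 2.42 and 0.0471 to 0.612 CPM).

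The B cell genes *Cd79a* and *Ms4a1* were high in the same few libraries. *Cd79a* was at 1.23, 0.735, 0.579 and 0.318 CPM in A+/Pki/ki microglia, at 0.956, 0.785, 0.529 and 1.46 CPM in A+/Pwt/wt microglia, and from 0 to 2.91 CPM (median 0.614) in the A-/Pwt/wt females. The libraries of A-/Pwt/wt mice 236 and 243 stood out with 2.82 and 2.91 CPM, and that of mouse 245 had no read of *Cd79a*. *Ms4a1* was at 1.51 and 0.859 CPM in the libraries of mice 236 and 243, at 0.101 to 0.284 CPM in the other 5 A-/Pwt/wt libraries, at 0.119 to 0.612 CPM in A+/Pki/ki and at 0.236 to 0.391 CPM in A+/Pwt/wt libraries. In cortex, *Ms4a1* had 3 counts or fewer in all 9 libraries, and *Cd79a* was at 0.072, 0.377, 0.417 and 0.195 CPM in A+/Pki/ki, at 0.363, 0.714, 0.341 and 0.462 CPM in A+/Pwt/wt and at 0.235 CPM in the A-/Pwt/wt library. The library of mouse 236 also had the highest summed red blood cell genes (980.0 CPM over 5 genes, where the median of the 7 A-/Pwt/wt libraries was 35.2 CPM), led by *Hbb-bs* at 449 and *Hba-a1* at 383 CPM. Their part in the B cell values was not tested.

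Unlike for the CD3 genes, genes known from lymphocytes were among those most like the sum of *Cd79a* and *Ms4a1* over the 15 female microglia libraries. These included *Fcmr*, the receptor for IgM (r = 0.93), *Spib*, a B cell transcription factor (0.89), *Gm5644* (0.86) and *Spn*, the leukocyte sialophorin CD43 (0.86). Without the libraries of mice 236 and 243, r was 0.70 to 0.77 for these 4. *Fcmr* was at 1.32 and 1.1 CPM in these 2 libraries and at 0 to 0.253 CPM in the other 5 A-/Pwt/wt libraries. The other B cell genes did not share this pattern of levels. *Ighm*, the IgM heavy chain, was at 129.6 to 485 CPM in microglia and 21.7 to 101 CPM in cortex, *Cd22* at 11.4 to 59.8 and 0.636 to 2.26 CPM and *Bank1* at 9.82 to 42.6 and 0.714 to 2.07 CPM. *Igkc*, the kappa light chain, was named after its values were seen. It ranged from 0 to 139.6 CPM in microglia, with the maximum in A+/Pwt/wt mouse 380, and from 0.306 to 34.3 CPM in cortex, with the maximum in A+/Pwt/wt mouse 329.

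**Figure D3:**
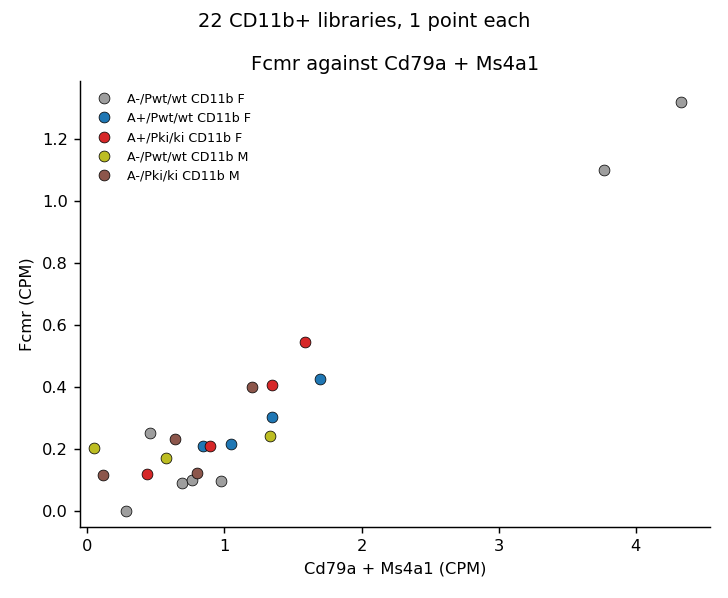
Fcmr (y axis) against the sum of Cd79a and Ms4a1 (x axis) in the 22 microglia libraries (CPM, linear axes, 1 point per library, color by sex and genotype). The A-/Pwt/wt libraries of mice 236 and 243 lie at the upper right, with Fcmr at 1.32 and 1.1 CPM.

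The variant was compared within APP/PS1 females first. For each comparison, genes with at least 10 counts in 3 or more of its libraries were tested with edgeR's quasi-likelihood test and Benjamini-Hochberg adjustment over all genes tested. In cortex, 4 of 9 members could be tested and 0 were called at an adjusted p of 0.05, beside 0% of all 18640 genes. A+/Pki/ki against A+/Pwt/wt, the log2 fold change was 0.19 ± 0.38 (SE) for *Cd4*, 0.20 ± 0.48 for *Cd8a*, -0.17 ± 0.24 for *Trbc2* and -0.76 ± 0.47 for *Cd79a* (edgeR adjusted p = 1 for each). The sign of the *Cd4* value was not stable, since it was -0.01 without A+/Pki/ki mouse 184 and -0.10 without A+/Pwt/wt mouse 257. The A+ libraries overlapped for every member in cortex, where 1.83% of the genes tested did not overlap. Of the other lymphocyte genes, 14 T cell, 4 cytotoxic and 9 B cell genes were tested and 0 were called. All 9 B cell genes had lower mean values in A+/Pki/ki, with a median log2 fold change of -0.49 against 0 over all genes. Single libraries weigh on this: the highest A+/Pwt/wt library held 1189 of the 1551 counts of *Igkc* in its group. For *Ighm*, the highest held 3510 of 8076 counts.

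In microglia of APP/PS1 females, 4 members were tested and 0 were called, beside 0% of 17039 genes. The log2 fold change, A+/Pki/ki against A+/Pwt/wt, was -0.09 ± 0.26 for *Cd4*, -0.32 ± 0.47 for *Trbc2*, 0.91 ± 0.71 for *Nkg7* and -0.44 ± 0.49 for *Cd79a*, with edgeR adjusted p between 0.853 and 0.917. The *Nkg7* value was as low as 0.15 when 1 library was left out. All 7 neutrophil genes had positive log2 fold changes here (median 2.48) and all 8 neuron genes negative ones (-0.85), with 0 called. Their part in the values of the members was not tested. No member was free of overlap between the genotypes, against 1.76% of the genes tested. Of 16 T cell, 9 cytotoxic and 9 B cell genes tested, 0 were called, with median log2 fold changes of 0.10, -0.32 and 0 beside 0 over all genes. With no call at all by edgeR in either tissue, 514 genes in cortex and 575 in microglia had an unadjusted p under 0.05, and DESeq2 called 11 and 7 genes, none of them a member.

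Each A+ genotype of female microglia was set against the same 7 A-/Pwt/wt libraries, so these 2 comparisons share their controls. In both, the transgene and the batch tag differ together. The Plcg2 genotype also differs in the A+/Pki/ki comparison, so these effects cannot be told apart. In A+/Pwt/wt, 5 members were tested and 0 were called, where 1.29% of 17355 genes were. The log2 fold changes were -0.44 ± 0.27 for *Cd4*, 0.58 ± 0.76 for *Cd8a*, -0.32 ± 0.81 for *Trbc2*, -0.45 ± 0.51 for *Nkg7* and -0.27 ± 0.84 for *Cd79a*. The last was 0.21 without A-/Pwt/wt mouse 236 and 0.07 without mouse 243. In A+/Pki/ki, 5 were tested and 0 called, where 1.64% of 17446 genes were, with -0.50 ± 0.28 for *Cd4*, -0.61 ± 0.87 for *Trbc2*, 0.49 ± 0.57 for *Nkg7*, -0.68 ± 0.91 for *Cd79a* and -0.36 ± 0.83 for *Ms4a1*. *Nkg7* was at -0.27 without A+/Pki/ki mouse 335. The edgeR adjusted p was 0.681 to 0.985 for the first and 0.42 to 0.848 for the second comparison. No tested member was free of overlap with the A-/Pwt/wt libraries, against 2.18% and 2.89% of the genes tested.

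*Pdcd1*, *Cd5* and *Cd28* were higher in both A+ genotypes than in A-/Pwt/wt, where the batch tag differs too. They were the only lymphocyte genes called in these 2 comparisons. Of T cell genes tested, 3 of 16 and 3 of 18 were called, with 0 of 10 and 0 of 11 cytotoxic genes. Of B cell genes, 0 of 11 were called in each. Of all genes, 1.01% and 1.35% were called higher. *Pdcd1*, the inhibitory receptor PD-1, was at 2.33 to 11.5 CPM (median 7.35) in A-/Pwt/wt, at 14.9, 33.3, 27.3 and 34.7 CPM in A+/Pwt/wt and at 32.2, 15.9, 35.1 and 40.0 CPM in A+/Pki/ki libraries. No A+ library overlapped the A- libraries, as for 2.18% (A+/Pwt/wt) and 2.89% (A+/Pki/ki) of the genes tested. The log2 fold change was 2.06 ± 0.33 in A+/Pwt/wt (edgeR adjusted p = 0.00838) and 2.17 ± 0.33 in A+/Pki/ki (0.00808).

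*Cd5*, an inhibitory scavenger receptor of T cells and some B cells, was at 0.253 to 1.47 CPM (median 0.525) in A-/Pwt/wt, at 4.65, 6.41, 3.91 and 9.26 CPM in A+/Pwt/wt and at 6.04, 3.67, 7.15 and 7.01 CPM in A+/Pki/ki libraries. Again the A+ and A- libraries did not overlap, as for 2.18% (A+/Pwt/wt) and 2.89% (A+/Pki/ki) of the genes tested. Its log2 fold change was 3.20 ± 0.37 (edgeR adjusted p = 0.00084) and 3.14 ± 0.35 (0.00106). *Cd28*, the costimulatory receptor of T cells, was at 0.329 to 1.29 CPM (median 0.732) in A-/Pwt/wt, at 1.04, 1.57, 4.7 and 5.62 CPM in A+/Pwt/wt and at 3.04, 1.55, 6.0 and 5.97 CPM in A+/Pki/ki libraries. Here 1 A+/Pwt/wt library lay within the A- range. The log2 fold change was 2.12 ± 0.47 (edgeR adjusted p = 0.0474) and 2.40 ± 0.39 (0.0113), and the call was lost on leaving out any 1 of 9 libraries in the first comparison (adjusted p up to 0.265) and A+/Pki/ki mouse 394 (0.0613) or 405 (0.0694) in the second.

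Between the 2 A+ genotypes, none of these 3 genes was called. The summed CD3 genes in the same libraries stayed at or under 1.43 CPM, and *Itgax*, a gene of dendritic cells also known from plaque-associated microglia, was at 17.9 to 69.3 CPM in A-/Pwt/wt, 177 to 591 CPM in A+/Pwt/wt and 209.6 to 488 CPM in A+/Pki/ki libraries. It was called with log2 fold changes of 3.46 and 3.04 (edgeR adjusted p = 0.000179 and 0.000278). Of a list of 9 monocyte and dendritic cell genes, *Itgax* was the only one called higher in each comparison, and the list summed to 47.5 to 142 CPM in A-/Pwt/wt and 221 to 626 CPM in the 8 A+ libraries, and its second gene by level, the monocyte receptor gene *Ccr2*, was at 9.76 to 25.3 and 12.2 to 21.9 CPM. Of 7 microglia genes, 0 were called in either comparison. All 7 border macrophage genes had negative log2 fold changes in both (median -1.01 in A+/Pwt/wt and -0.81 in A+/Pki/ki), with 2 and 1 called lower. In A+/Pki/ki, the log2 fold changes of all 7 neutrophil genes were positive (median 1.55) and those of all 8 neuron genes negative (-0.84), with 0 called. In A+/Pwt/wt, the medians of these lists were -1.03 and 0.02, also with 0 called. The part of these cells in the 3 T cell genes was not tested. In cortex, the same genes could be set beside the single A-/Pwt/wt library. *Pdcd1* had no read there (exact Poisson interval up to 0.0868 CPM), against 1.14 to 2.26 CPM in the 8 A+ libraries. *Cd5* had 2 counts, 0.0471 CPM (0.0057 to 0.17), against 0.394 to 0.923 CPM, and *Cd28* had 0.518 CPM (0.325 to 0.784), inside the 0.195 to 0.612 CPM of the A+ libraries. With 1 A- cortex library, these differences have no replicate check.

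**Figure D4:**
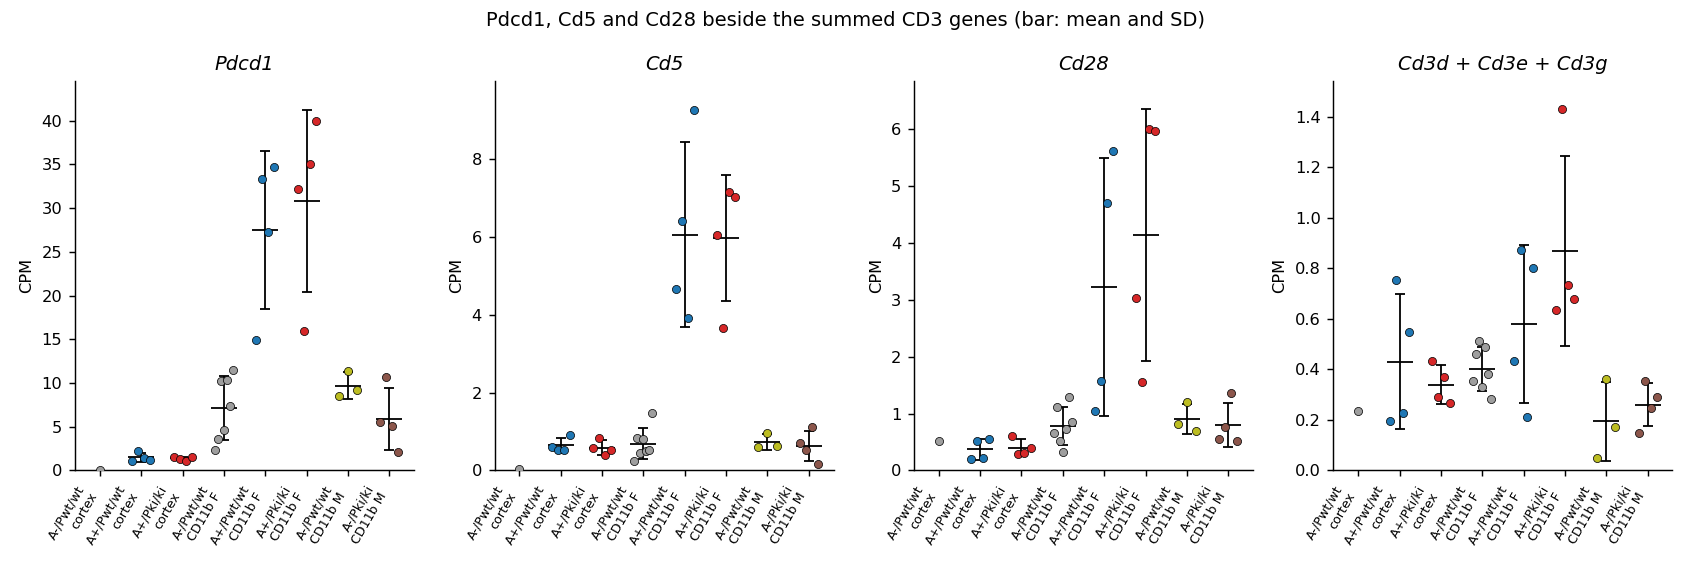
CPM (y axis, linear) of Pdcd1, Cd5, Cd28 and the sum of Cd3d, Cd3e and Cd3g in every library by tissue, sex and genotype (x axis); points are libraries and bars give mean and SD. Pdcd1 lies at 14.9 to 40.0 CPM in the 8 A+ microglia libraries and at 2.33 to 11.5 CPM in the A-/Pwt/wt females, while the CD3 sum stays at or under 1.43 CPM.

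In male microglia without the transgene, only *Cd4* and *Cd79a* of the 9 members could be tested, and 0 were called, where 16.4% of 16373 genes were. A-/Pki/ki against A-/Pwt/wt, the log2 fold change was -0.10 ± 0.30 for *Cd4* and 0.25 ± 0.82 for *Cd79a*, with edgeR adjusted p of 0.842 and 0.857. *Cd79a* was at 1.0, 0.059, 0.801 and 0.523 CPM in A-/Pki/ki and at 0.0508, 1.03 and 0.578 CPM in A-/Pwt/wt libraries, so 1 library in each group was near 0. Its value was -0.06 without A-/Pki/ki mouse 84 and -0.29 without A-/Pwt/wt mouse 94, and that of *Cd4* was 0.18 without A-/Pwt/wt mouse 101 and 0.02 without A-/Pki/ki mouse 136. Neither of the 2 was free of overlap, against 34.6% of the genes tested.

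Of the other lymphocyte genes, 0 of 13 T cell, 1 of 5 cytotoxic and 2 of 7 B cell genes tested were called in males, where 16.4% of all genes were. Lists of 5 and 7 genes are too short to set apart from that share. *Eomes*, a transcription factor of NK and T cells, was at 0.802, 1.0, 0.739 and 0.814 CPM in A-/Pki/ki and at 0.102, 0.181 and 0.231 CPM in A-/Pwt/wt libraries (log2 fold change 2.38 ± 0.44, edgeR adjusted p = 0.00858). It had 12 to 17 counts in A-/Pki/ki libraries and only 2 to 4 in A-/Pwt/wt libraries. *Eomes* thus passed the count minimum only through A-/Pki/ki, where it is high. *Cd22*, an inhibitory receptor of B cells also known from microglia, was at 17.3, 16.6, 11.7 and 13.3 against 25.7, 27.2 and 26.6 CPM (-0.73 ± 0.14, 0.0105), and *Ighd*, the IgD heavy chain, at 7.62, 11.2, 7.58 and 6.92 against 16.1, 12.9 and 14.7 CPM (-0.69 ± 0.20, 0.0454). For all 3, the groups did not overlap, as for 34.6% of all genes tested. The calls of *Cd22* and *Ighd* were lost on leaving out any 1 of 3 and of 6 libraries, with adjusted p up to 0.0647 and 0.197. Genes of other cells moved with the genotype in these libraries: all 8 neuron genes and all 5 astrocyte genes were called higher in A-/Pki/ki, with a summed level of the neuron genes of 619 to 1294 CPM against 184 to 264 CPM, and the microglia genes summed to 12028 to 19441 against 21762 to 23361 CPM. *Camk2a* and *Snap25*, the highest neuron genes, were at 383 to 802 and 54.6 to 126 CPM in A-/Pki/ki and at 104 to 152 and 21 to 32.7 CPM in A-/Pwt/wt libraries. Their part in the 3 lymphocyte genes was not tested.

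Microglia and cortex of the 8 A+ females each were compared in a model with tissue and Plcg2 genotype. RNA extraction and the brain region differ with the tissue. Of 5 members tested, 4 were called, where 84.4% of 19942 genes were, and the count is therefore close to the background. *Cd4* and *Trbc2* were lower in microglia, as were 43.8% of all genes tested, with log2 fold changes of -2.30 ± 0.29 (edgeR adjusted p = 1.67e-06) and -3.16 ± 0.26 (8.46e-09). *Nkg7* and *Cd79a* were higher in microglia, as were 40.6% of all genes, with 2.63 ± 0.57 (0.000441) and 1.5 ± 0.34 (0.000718). Over the 8 A+ cortex libraries, *Nkg7* had 41 counts in all and at most 10 in a library, so it passed the count minimum only through microglia. *Cd8a* did not pass the test (0.45 ± 0.42, 0.318). *Cd4* ranged from 1.87 to 3.79 CPM in microglia and from 4.6 to 24.8 CPM in cortex and *Trbc2* from 0.21 to 0.756 and from 3.09 to 6.45 CPM, without overlap, as for 60.6% of the genes tested. *Nkg7* and *Cd79a* overlapped between the tissues.

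*Cd3d*, *Cd3e*, *Cd3g* and *Ms4a1* were not tested in this comparison because of their low counts. Without the count minimum, *Cd3d* (1.88, adjusted p = 0.015), *Cd3g* (1.24, 0.0476) and *Ms4a1* (3.54, 8.36e-05) were also called higher in microglia by edgeR, which makes 7 of 9. The share of all genes called without the minimum is not given here, so this count cannot be set against a background. The other lymphocyte genes lay mostly on the side of microglia. Of 20 T cell genes tested, 12 were called higher and 3 lower (median log2 fold change 1.37), of 10 cytotoxic genes 9 and 1 (4.47), and of 12 B cell genes 10 and 2 (3.36), against a median of -0.08 over all genes. Among the largest were *Gzma* and *Gzmb* (granzymes, 5.87 ± 0.62 and 5.39 ± 0.59) and *Il7r* (the interleukin-7 receptor, 5.14 ± 0.28). Each granzyme had only 3 counts in all over the 8 A+ cortex libraries. Both passed the count minimum only through microglia and could thus come out only higher there, by a size that rests on a near-empty cortex. The 3 T cell genes lower in microglia, named after their values were seen, were *Cd6* (-2.35 ± 0.23), *Skap1* (-1.87 ± 0.27) and *Lck* (-1.25 ± 0.26). *Tcf7*, the T cell transcription factor with the highest mean of its list, was at 5.22 to 25.1 CPM in microglia and 4.9 to 7.31 CPM in cortex.

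**Figure D5:**
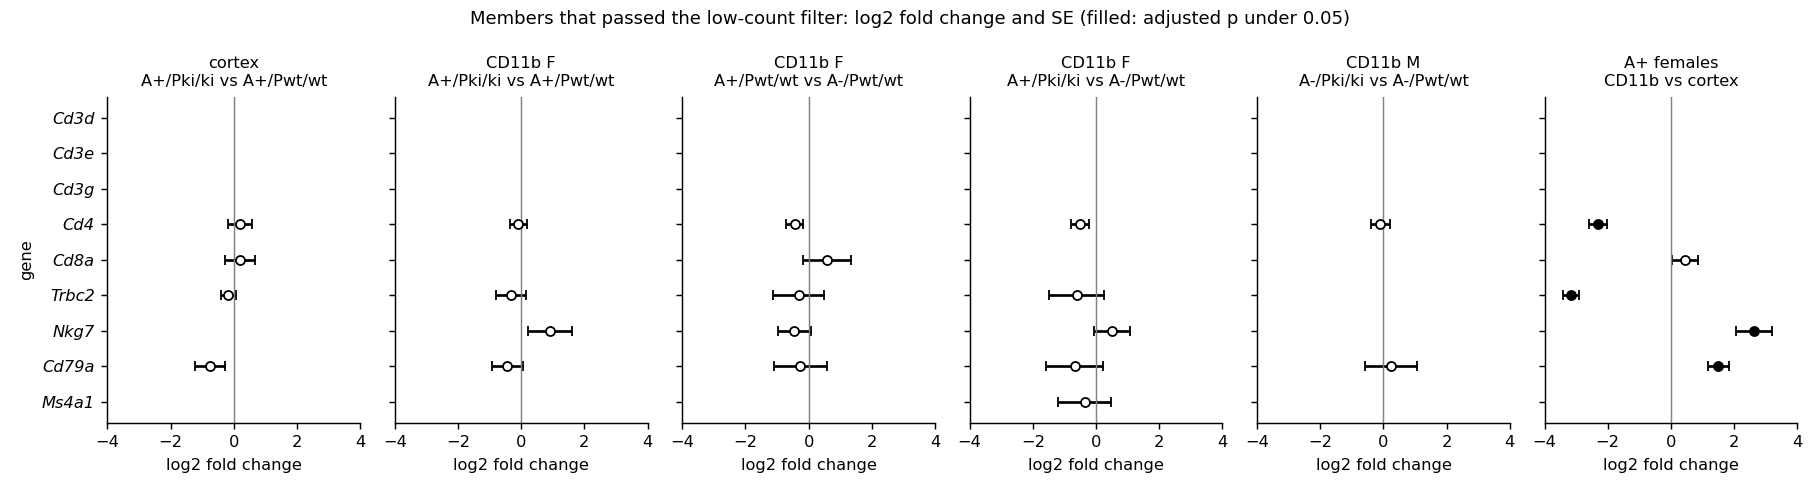
Log2 fold change (x axis) with its SE for the members that passed the count minimum, by gene (y axis), in the 6 comparisons; filled points have an edgeR adjusted p under 0.05. Only the comparison of microglia with cortex holds filled points, with Cd4 (-2.30) and Trbc2 (-3.16) on the left and Nkg7 (2.63) and Cd79a (1.5) on the right.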

How the data were processed

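RNA was sequenced as poly(A)-selected, paired-end libraries from 31 samples. Per the methods and the submitters' processing notes, the authors trimmed reads with Trimmomatic (0.39), aligned them with STAR (2.7.9a) to GRCm38 and counted uniquely mapped reads per gene, irrespective of strand, with featureCounts (2.12.0). The deposited values used here are raw counts per gene and library. The authors' normalized tables, made with DESeq2, were not used. Coordinates and exon lengths are from Gencode M21 on GRCm38, an earlier release than the one counted.

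Counts were divided by the library total for CPM. Each comparison was fitted on its own libraries with edgeR (4.0.16, R 4.3.3) and TMM scaling, for genes with at least 10 counts in 3 libraries, at an adjusted p of 0.05. Alternatives were other size factors, library totals, no or another count minimum, DESeq2 (1.42.0), a fit with all groups and leaving out each library. The 9 members and the lists of 53 other lymphocyte genes and of other cells were chosen with earlier results of these data known. Named were all members, the 3 highest genes of each lymphocyte list, up to 5 called genes a comparison, the 2 highest genes of another list set beside a result and the 5 genes most alike by correlation of log2(CPM + 0.1). All 31 libraries mapped to a group. Some genes that this rule names are not reported here.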

Additional observations from a re-analysis of the deposited data

Results flagged for a closer look

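The 9 members were examined in groups of 4 to 10 libraries, which made 54 sets of 1 member in 1 group. Of these, 5 held a library far from the others. The cutoff flags about 1 in 20 sets by chance if values are normally spread. Most flagged values rest on few counts, so the chance rate is not known here. *Cd3d* was at 0.357 CPM (9 counts) in the cortex of A+/Pwt/wt mouse 257, with the nearest library at 0.0759 CPM. *Trbc2* was at 3.09 CPM in the cortex of A+/Pwt/wt mouse 329, below the next library at 6.03 CPM. *Cd3g* was at 0.579 CPM (11 counts) in the microglia of A+/Pki/ki mouse 394, with the nearest at 0.182 CPM. *Cd8a* was at 0.451 CPM (9 counts) in the microglia of male A-/Pki/ki mouse 84, with the nearest at 0.185 CPM. *Ms4a1* was at 0.0696 CPM in the cortex of A+/Pki/ki mouse 216, where 3 counts stood against 0 in the other 3 libraries, which is at the detection limit.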

How the results depend on the processing

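Low counts limit these results: 4 to 7 of the 9 members did not reach the count minimum in each comparison, and the CD3 genes reached it in none. The cortex A-/Pwt/wt group holds 1 library. Of 635 recomputed fold changes of single genes, 602 kept their direction and side of the threshold, 21 lost a call and 12 changed sign. None of the 12 had been called. Signs changed only on leaving out 1 library: *Cd4* in cortex ranged from -0.10 to 0.52, *Cd8a* in cortex from -0.09 to 0.34, *Cd4* in A+ microglia from -0.19 to 0.07 between the Plcg2 genotypes, *Cd79a* from -0.59 to 0.21 and *Nkg7* from -0.27 to 0.84 against A-/Pwt/wt (A+/Pwt/wt and A+/Pki/ki), and in males *Cd4* from -0.27 to 0.18 and *Cd79a* from -0.29 to 1.12. The cause was not tested.

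The number of members called stayed at 0 in the 5 genotype comparisons under all alternatives, and in the tissue comparison it was 4, or 7 without a count minimum and 3 with the filter of edgeR's filterByExpr. The shares of all genes called in the tissue comparison with these other filters are not given here. Counts over all genes moved more. For A+/Pki/ki against A+/Pwt/wt, edgeR called 0 genes in cortex, 40 without a count minimum, and DESeq2 11, with 0 to 2 on leaving out 1 library. In microglia these were 0, with 7 by DESeq2 and 0 to 1 without 1 library. Against A-/Pwt/wt, the 224 genes of A+/Pwt/wt became 129 with library totals, 636 with DESeq2 and 91 to 497 without 1 library. The 286 genes of A+/Pki/ki became 109 with library totals, 932 with DESeq2, 510 with all 3 groups in the fit and 57 to 1097 without 1 library. In males, the 2685 genes became 894 to 5439 without 1 library. The call of *Cd28* in A+/Pwt/wt was also lost with library totals (adjusted p = 0.0756).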
